A study of Gallus gallus with 21 samples.

Results

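Testes were compared with ovaries in chicken embryos at 18 days of incubation, with the weight on autosomal genes and with Z and W genes shown apart. All arrays labelled as male gonad (4 testes) or female gonad (3 ovaries) were taken, which are 7 of the 21 arrays of the series, and the remaining arrays are of brain and heart. The birds were White Leghorn embryos of both sexes, with no treatment, and the left gonad of each was excised whole. Each array holds the RNA of 1 embryo, and the gonad array of the fourth female did not meet quality criteria. The sexes were told apart by eye on the gonads and ducts, and gonad RNA was extracted with a kit for small amounts of tissue. Because the gonad was used whole, fewer cells of a type and less RNA per cell cannot be told apart in any value below. Values are intensities of probe sets on the log2 scale, where a difference of 1 is a doubling. Ovaries are given in the order of embryos 2, 12 and 20, and testes in the order of embryos 9, 16, 19 and 21.

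In birds the female carries Z and W and the male a pair of Z chromosomes, and the left gonad alone becomes the working ovary of the hen. The embryonic testis forms cords of Sertoli cells around germ cells that stay out of meiosis until after hatching. Germ cells in the cortex of the left ovary enter meiosis earlier than those of the testis. Germ cells, supporting cells, steroid-producing cells, connective tissue, vessels and surface epithelium all add RNA to such a sample.

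Of 16499 probe sets with gonad values, 2120 were higher in testes and 2271 in ovaries (26.6% of all probe sets, fold change above 1.5 and adjusted p below 0.05, limma). Taking for each of 8627 genes the probe set with the highest mean in gonads, 852 of 8178 autosomal genes were higher in testes (10.4%) and 1200 were higher in ovaries (14.7%), with a median difference of -0.01. These 2 shares are the background for the gene groups below, which count autosomal members only. The groups were listed with earlier results of these data known, so their counts describe these arrays and are no independent test. More than 4-fold, 161 autosomal genes were higher in testes and 317 in ovaries. Among the probe sets with gonad values the lowest mean of the higher sex was 4.00, and a mean under that level was taken as background. Of the called autosomal genes, 288 of those higher in ovaries had testes under the background level and 127 of those higher in testes had ovaries under it. Such a gene has values here only through the sex in which it was high, and its fold change is given as "at least", measured against 4.00. Correlations across probe sets were 0.970 to 0.974 among ovaries, 0.974 to 0.981 among testes and 0.878 to 0.896 between a testis and an ovary. The labels were borne out by defining genes, since SOX9 and INHA lay under the background level in every ovary and above it in every testis, and CYP19A1 and FOXL2 the reverse.

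**Figure D1:**
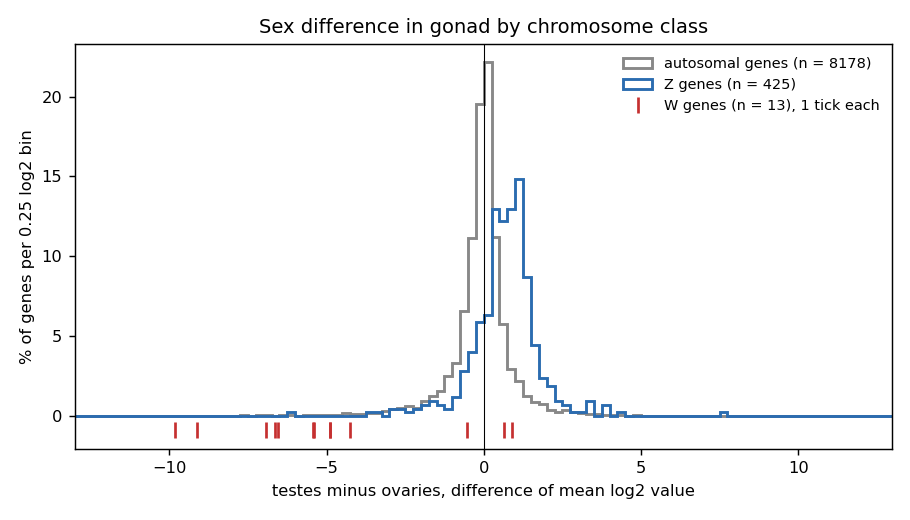
Distribution of the difference between testes and ovaries (x axis, difference of mean log2 values) over 8178 autosomal genes and 425 Z genes, as the percent of genes in each 0.25 log2 bin (y axis), with 13 W genes as ticks. Autosomal genes centre on a median of -0.01 with a longer tail on the ovary side, Z genes centre on 0.73, and 10 W genes lie far on the ovary side.

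Genes of meiotic chromosomes were higher in ovaries as a group. Of 60 listed genes, 34 had gonad values, and of the 32 autosomal ones 21 were higher in ovaries (65.6%, against 14.7% of all autosomal genes) and 1 was higher in testes, with a median difference of -2.73. In 13 of the 32 the testes lay under the background level. MCMDC2, which acts in meiotic recombination in mouse, measured 8.84, 8.70 and 9.19 in the ovaries and 2.08, 2.08, 2.10 and 2.07 in the testes. Every testis was thus at background and the ovaries lay close together, at least 30.1-fold higher (log2 difference -6.83, standard error 0.15, adjusted p = 2.79e-08). HFM1, a helicase of meiotic crossover formation, measured 8.58, 8.58 and 9.14 in ovaries and between 3.38 and 3.94 in testes, at least 27.2-fold lower (adjusted p = 9.56e-07). SPATA22, a partner of recombination proteins in mouse, measured 7.69, 7.91 and 7.76 in ovaries and 2.62 to 2.67 in testes, at least 13.8-fold apart (adjusted p = 3.86e-08). The other called members, which hold cohesins, axial elements and recombinases, differed by -6.59 to -1.86. Not all members took part. MND1, a factor of strand exchange, was 1.59-fold higher in testes (adjusted p = 0.00272), a call that was lost without the ovary of embryo 12, and 10 autosomal members passed no threshold. Among them were MSH4, at a difference of -0.41, and STAG3, at -0.36.

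Germ cell genes outside the meiotic machinery were called higher in ovaries more often than in testes. The median difference over 21 autosomal members with values was -1.81. Of these members, 9 were higher in ovaries (42.9%, against 14.7% of all autosomal genes) and 3 in testes (14.3%, against 10.4%). The latter were KIT, a receptor of germ cells, DND1, which guards germ cell RNA, and TDRD3, a Tudor protein. BRDT, a bromodomain protein of spermatogenic cells in mammals, measured 7.61, 6.75 and 6.20 in ovaries and 2.49 to 2.55 in testes. The testes were at background throughout, and the ovaries were at least 7.22-fold higher (adjusted p = 2.2e-05). RNF17, a Tudor protein of germ cell granules, measured 9.56, 9.49 and 10.54 in ovaries and 5.98, 7.15, 8.04 and 7.74 in testes (6.21-fold, adjusted p = 0.00556). CPEB1, which controls polyadenylation of stored mRNA, was higher in ovaries by 5.91-fold (adjusted p = 0.000159). Its other probe set differed by -1.10 and was not called. Also higher in ovaries were TDRD5, a Tudor protein of the piRNA pathway, by 5.69-fold (adjusted p = 0.0112), and RBM46, an RNA-binding protein of germ cells, by 5.51-fold (adjusted p = 0.00014). In RNF17, CPEB1, TDRD5 and RBM46 the ovary of embryo 20 was the highest of the ovaries and the testis of embryo 9 the lowest of the testes. PIWIL1, also on this list, measured 11.65, 11.66 and 12.26 in ovaries and 7.95, 9.04, 9.61 and 9.19 in testes (7.52-fold, adjusted p = 0.00125). The germ cell markers DAZL and DDX4 differed less. DAZL, an RNA-binding protein of germ cells of both sexes, measured 9.73, 9.51 and 10.62 in ovaries and 8.92, 9.36, 9.97 and 9.61 in testes, so the sexes overlapped (difference -0.49, standard error 0.33, adjusted p = 0.318). DDX4, the vasa helicase on Z, differed by -0.76 (standard error 0.40, adjusted p = 0.197). Of 6 oocyte genes with values, ZP1 and ZAR1L were higher in ovaries and LHX8 and NPM3 in testes. NPM3, a histone chaperone, was under background in all ovaries (3.70, 3.74 and 3.74) and measured 5.43, 5.64, 7.15 and 6.95 in testes, at least 4.89-fold higher (adjusted p = 0.00315). ZP1, an egg coat protein, measured 2.88, 5.01 and 5.67 in ovaries, and its call was lost without the ovary of embryo 12 or that of embryo 20. LHX8, a homeobox factor of oocytes in mouse, was 3.04-fold higher in testes, with its call lost when some arrays were left out.

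**Figure D2:**
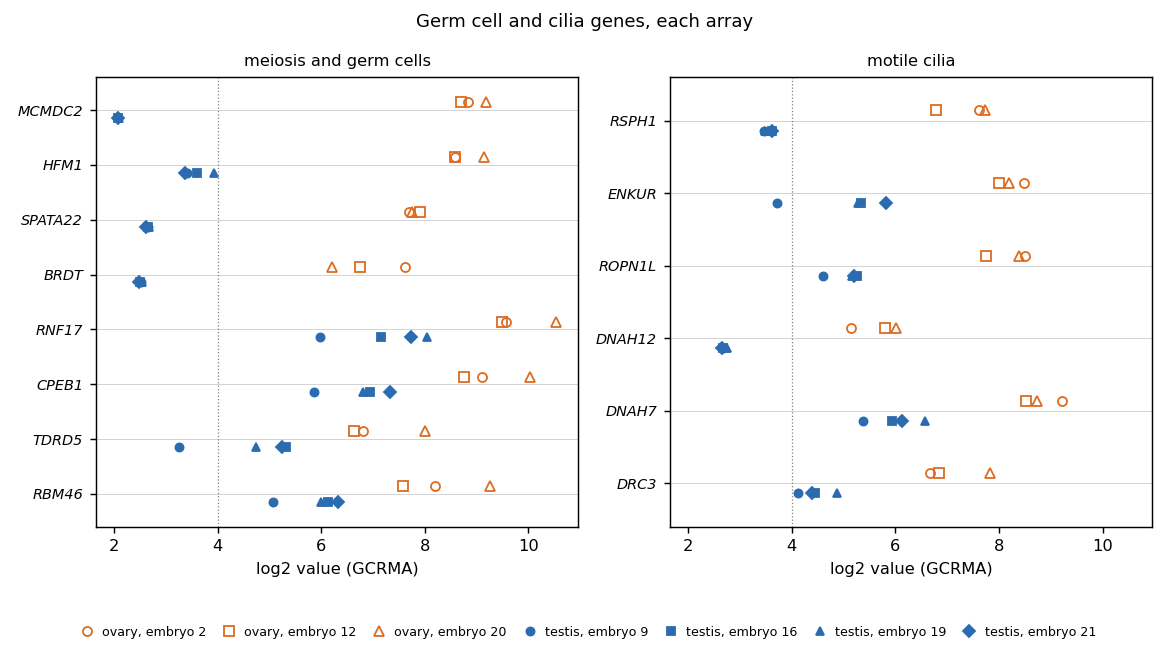
Log2 values (x axis) of 8 meiosis and germ cell genes and 6 cilia genes in each array, with open symbols for the 3 ovaries, filled symbols for the 4 testes and a dotted line at the background level of 4. Every ovary lies to the right of every testis in each gene, and all testes lie left of the line in MCMDC2, HFM1, SPATA22, BRDT, RSPH1 and DNAH12.

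Genes of motile cilia, the beating structures of multiciliated cells and sperm tails, were also mostly higher in ovaries. Of 79 listed genes, 36 had gonad values, and 18 of 33 autosomal members were higher in ovaries (54.5%) and 1 in testes, with a median difference of -1.49. RSPH1, a radial spoke protein, measured 7.61, 6.79 and 7.74 in ovaries and 3.46, 3.62, 3.49 and 3.61 in testes. The ovaries were at least 10.4-fold higher, with testes under background (log2 difference -3.84, standard error 0.25, adjusted p = 1.58e-07). ENKUR, a protein of the inner wall of ciliary microtubules, was 9.14-fold higher in ovaries (adjusted p = 5.91e-05) and ROPN1L, a radial spoke component, 8.94-fold (adjusted p = 1.19e-05). DNAH7, an inner dynein arm heavy chain, measured 9.21, 8.53 and 8.74 in ovaries and 5.37, 5.94, 6.58 and 6.13 in testes (7.05-fold, adjusted p = 6.51e-06). DNAH12, of the same family, lay at background in testes and was at least 3.16-fold higher in ovaries, while DRC3, a subunit of the nexin-dynein complex, was 6.32-fold higher (adjusted p = 1e-05). The member called the other way was CFAP52, a protein of ciliary microtubules, at 1.97 to 1.99 in ovaries and 4.40, 3.52, 4.06 and 4.59 in testes. Its testes were thus barely above background, and measured against that level it was at least 1.1-fold higher in testes (adjusted p = 0.000398). In 10 of the 33 members the testes were under background and in 2 the ovaries were. Markers of kidney and mesonephros, the embryonic kidney beside the gonad, moved the same way as the cilia genes. Of 34 such markers 6 had values and 5 of these were higher in ovaries, and their mean log2 level was 6.84 to 7.27 in ovaries and 5.04 to 5.61 in testes. The largest difference among them was that of UMOD (7.37, 7.54 and 7.53 against 2.33 to 2.97), for which the gene table also lists the name of an egg coat protein, ZPD. Without the ovary of embryo 12, 3 of the kidney markers were called. CA2 and CUBN overlapped between the sexes and lost their calls in that fit, among others. CALB1 was under background in all testes and at least 1.17-fold higher in ovaries. The part of kidney tissue in the cilia result was not tested.

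Of 24 autosomal host defence genes with values 16 were higher in ovaries (66.7%), 8 were not called and the median difference was -2.83. On Z, the complement gene C7 was higher in testes, at 3.86, 6.29 and 6.39 in ovaries and 9.15 to 10.37 in testes. In 10 of the 24 autosomal genes the testes lay under background. Part of these are antimicrobial proteins that avian granulocytes store. AvBD7, an avian beta-defensin, measured 9.90, 12.23 and 11.27 in ovaries and 4.00, 4.92, 2.85 and 4.57 in testes (133-fold, log2 difference -7.05, standard error 0.81, adjusted p = 3.21e-06). CATH1, a cathelicidin, measured 10.30, 13.47 and 12.26 in ovaries and 4.23, 6.72, 2.81 and 6.47 in testes (124-fold, log2 difference -6.95, adjusted p = 0.000121). Its other probe set was called the same way but differed by only -1.56. LECT2, a chemotactic protein, measured 8.38, 11.84 and 10.61 in ovaries and 2.68, 4.85, 2.21 and 2.80 in testes. In AvBD7, CATH1 and LECT2, and also in AvBD1 and the lysozyme LYG2, the ovary of embryo 12 was highest, that of embryo 20 next and that of embryo 2 lowest, and the testis of embryo 16 was the highest testis, so the genes varied together within each sex as well. Leaving out single arrays, the difference of LECT2 ran from -8.09 to -6.36 (highest adjusted p = 0.000337), and those of AvBD1 and CATH1 kept their calls as well. In a list of 29 granule genes that was added after these values were seen, 9 of 11 with values were higher in ovaries, and the mean log2 level of the 11 was 7.23, 9.91 and 8.82 in ovaries and 2.93 to 4.35 in testes. Markers of blood and immune cells as a whole differed less. Of 10 with values, CYBB, the phagocyte oxidase subunit (5.69 to 6.60 against 2.17 to 2.33), PTPRC, the leukocyte antigen CD45 (2.49-fold, adjusted p = 0.000212), and CD74 were higher in ovaries, the last losing its call without some arrays, while CSF1R, the macrophage growth factor receptor, differed by 0.21 and was not called. Complement genes were among the members too, with the proteases CFI (12.45, 11.40 and 12.44 against 7.03 to 8.22) and C1S (5.24 to 5.63 against 2.27 to 2.29) higher in ovaries.

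Interferon-stimulated genes, a second group within defence, stood higher in all 3 ovaries with another order among them. The list for them was written after the values of IFI6 and MX1 were seen, so its counts describe these arrays and support nothing further. In it, 15 of 26 genes with values were higher in ovaries and 1 in testes. IFI6, an interferon-induced mitochondrial protein, measured 9.75, 10.98 and 12.04 in ovaries and 3.47, 3.00, 2.95 and 3.30 in testes, at least 121-fold apart (log2 difference -7.75, standard error 0.51, adjusted p = 4.51e-09). MX1, an antiviral GTPase, measured 9.57, 9.15 and 10.51 in ovaries and 2.45 to 2.97 in testes, at least 53.5-fold apart (adjusted p = 2.19e-06). IRF1, a transcription factor of the interferon response, measured 9.77, 9.54 and 9.80 in ovaries and 4.79, 4.26, 4.56 and 4.66 in testes (35.2-fold, adjusted p = 7.66e-12). The ovaries of IRF1 lay close together, where those of the granule genes spread widely. IFIT5, an RNA-binding antiviral protein, was 14.4-fold higher in ovaries (adjusted p = 7.05e-05), while the receptor gene IFNAR1 was 1.63-fold higher in testes (adjusted p = 0.00636). The ovary of embryo 20, not that of embryo 12, was the highest in IFI6, MX1, IFIT5, TLR3 and EPSTI1.

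**Figure D3:**
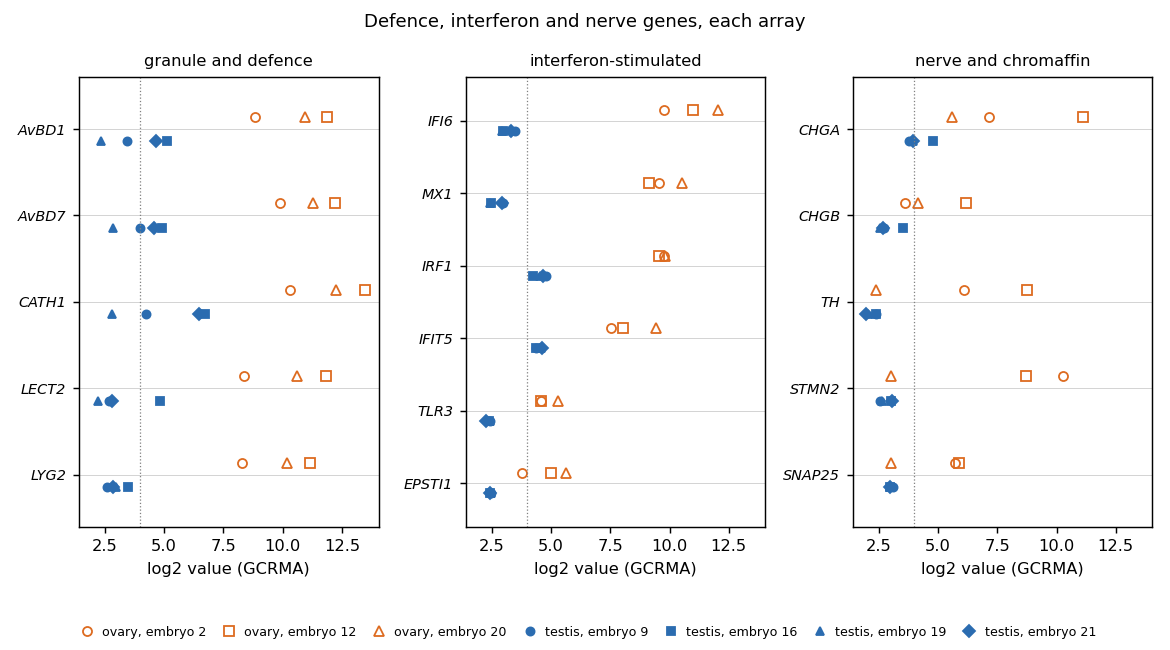
Log2 values (x axis) of granule and defence genes, interferon-stimulated genes and nerve or chromaffin genes in each array (open symbols, ovaries; filled symbols, testes; dotted line, background level of 4). The ovary of embryo 12 is the highest in all 5 granule genes and the ovary of embryo 20 in IFI6, MX1 and IFIT5, while the ovary of embryo 20 sits among the testes in STMN2, TH and SNAP25.

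Further autosomal genes with large excess in ovaries had no common list. MYOZ2, a protein of the Z-disc of striated muscle, measured 10.22, 10.04 and 10.41 in ovaries and 2.47 to 3.01 in testes, at least 74.7-fold apart (adjusted p = 3.2e-13), although other muscle genes went the other way (below). HHIPL2, named for its likeness to a Hedgehog-binding protein, measured 9.77 to 9.91 in ovaries and 2.29 to 2.35 in testes, at least 56.5-fold apart. PTPRZ1, a receptor tyrosine phosphatase, was at least 75.2-fold higher in ovaries, TGM4, a transglutaminase, at least 52.3-fold, and FAM132A, a secreted protein of the C1q and tumour necrosis factor family, at least 47.8-fold. CXCL14, a chemokine, measured 12.24, 11.18 and 11.98 in ovaries and 4.67, 6.02, 4.01 and 3.10 in testes. Its standard error, which pools the spread over gonad, brain and heart arrays, was the largest of these genes (163-fold, log2 difference -7.35, standard error 1.23, adjusted p = 0.000165). Among epithelial genes, BNC1, a transcription factor of mesothelium and germ cells, measured 8.91, 8.11 and 8.60 in ovaries and 2.44 to 2.48 in testes, at least 23.3-fold apart (adjusted p = 2.44e-07), but it was the single one of 5 surface epithelium markers called in that direction.

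Lists of somatic gonad genes hold genes known for their sex difference, so their counts are no independent check of the tissue. Over all autosomal genes the shares were 10.4% in testes and 14.7% in ovaries. Of 19 Sertoli and testis cord genes 10 were higher in testes (52.6%) and 4 in ovaries (21.1%). Of 16 ovarian somatic genes 7 were higher in ovaries (43.8%) and 4 in testes (25%). Of 12 estrogen target genes 3 were called each way (25%). Epithelial junction and keratin genes were called in 3 of 19 in testes (15.8%) and 5 of 19 in ovaries (26.3%).

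Steroid and prostaglandin genes were called higher in ovaries more often than in testes. Of 17 autosomal genes of steroid synthesis 5 were higher in ovaries (29.4%, against 14.7% of all autosomal genes), the aromatase gene CYP19A1 among them. In testes 1 was higher (5.88%, against 10.4%). HSD17B1 was at least 178-fold higher in ovaries (adjusted p = 6.05e-09) and STAR 4.46-fold (adjusted p = 0.000576). The early enzyme CYP11A1, which cuts the cholesterol side chain, differed by 0.02 and CYP17A1, which makes androgens, by -0.39, neither of them called. HSD3B1, which makes progesterone and androstenedione, was 1.86-fold higher in testes (adjusted p = 0.0406), but its arrays overlapped, its other probe set was not called and the call was lost without some arrays. Cholesterol synthesis split at 3 of 17 each way (17.6%). With gonad arrays alone and with each gonad array left out, 1 of the testis calls and 3 ovary calls held. ACAT2, a thiolase at the start of the pathway, was higher in testes by 3.32-fold (adjusted p = 2.53e-07). Its other probe set, at 0.57, was not called. DHCR7, the last enzyme of the pathway, was 1.88-fold higher in ovaries (adjusted p = 0.00832). In prostaglandin metabolism 4 of 13 were higher in ovaries (30.8%) and 1 in testes (7.69%). The testis call, that of PLA2G4A, was lost without some arrays. HPGDS, a prostaglandin D synthase, measured 8.58, 7.36 and 8.85 in ovaries and 6.21, 5.60, 4.69 and 5.81 in testes (6.45-fold, adjusted p = 0.000796). PTGER3, a receptor for prostaglandin E2, was 2.98-fold higher in ovaries (adjusted p = 0.00806) and PTGES, which makes prostaglandin E2, 2.16-fold.

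Genes of energy supply were called higher in ovaries more often than in testes. Of 30 autosomal genes of glycolysis and the hypoxia response 9 were higher in ovaries (30.0%) and 4 in testes (13.3%). Of 32 of fatty acid metabolism the counts were 9 (28.1%) and 4 (12.5%). The shares over all autosomal genes were 14.7% in ovaries and 10.4% in testes, so the testis shares of both lists lay near that level. PCK1, which controls gluconeogenesis, measured 7.90, 8.14 and 7.21 in ovaries and 2.41, 2.90, 2.43 and 2.39 in testes. It was thus at background in testes and at least 13.5-fold higher in ovaries (log2 difference -5.22, standard error 0.25, adjusted p = 2.55e-06). P4HA2, which hydroxylates collagen prolines, was 8.71-fold higher in ovaries (adjusted p = 1.53e-05), and the fatty acid carrier FABP7 8.99-fold (adjusted p = 2.77e-06). FABP7 is also counted among the markers of Schwann cells and glia below. FABP3, a carrier of the same family, was 3.41-fold higher in ovaries as well (adjusted p = 0.000545), and so was PDK4, which restrains glucose oxidation (3.22-fold, adjusted p = 0.000295). CPT2, which acts after CPT1A in the entry of fatty acids to mitochondria, differed by -0.23 and was not called. On the testis side, PPARGC1A, a coactivator of mitochondrial genes, measured 7.06, 6.90 and 6.63 in ovaries and no less than 8.37 in any testis (3.27-fold, adjusted p = 8.37e-07), CPT1A, which admits fatty acids to mitochondria, exceeded its ovarian level 2.99-fold (adjusted p = 0.000288), and the nuclear receptor PPARA 2.72-fold (adjusted p = 0.000378).

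Retinoic acid genes differed on both sides of the pathway. CYP26B1, which breaks retinoic acid down, was under background in ovaries (3.19, 2.87 and 3.21) and measured 6.19, 5.73, 6.57 and 6.61 in testes, at least 4.84-fold higher (log2 difference 3.19, standard error 0.24, adjusted p = 3.18e-05). CYP26A1, an enzyme of the same kind, measured 3.78, 3.71 and 6.11 in ovaries and 2.70 to 2.76 in testes, so only the ovary of embryo 20 rose above background, and its call was lost without any 1 of the testes. BCO1, which cleaves beta-carotene to retinal, measured 8.40, 7.95 and 7.89 in ovaries and 3.73 to 3.74 in testes, at least 16.9-fold apart (adjusted p = 4.42e-07). Of the enzymes that make retinoic acid, ALDH1A3 was 2.19-fold higher in testes (adjusted p = 0.0259), with its call lost without some arrays. ALDH1A2 differed by -0.05 and was not called. On Z, ALDH1A1, of the same family, measured 5.10, 7.03 and 6.28 in ovaries and 13.70 to 14.03 in testes (213-fold, adjusted p = 1.7e-06). In all, 5 of 14 autosomal members were higher in ovaries and 4 in testes.

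Smooth muscle contractile genes were higher in testes in 12 of 22 autosomal members. Of 33 listed genes 23 had values, and the 12 make 54.5% of the autosomal ones, against 10.4% of all autosomal genes, with a median difference of 0.93 and 1 member higher in ovaries. The largest difference was that of ACTG2, enteric smooth muscle actin, at 6.03. KCNMB1, a subunit of the calcium-activated potassium channel of smooth muscle, measured 6.98, 7.17 and 5.19 in ovaries and 11.27, 11.27, 11.28 and 11.45 in testes. The testes agreed closely and the difference was 29.3-fold (log2 difference 4.87, standard error 0.45, adjusted p = 0.000106). MYH11, the smooth muscle myosin heavy chain, measured 6.49, 6.13 and 5.33 in ovaries and 10.31, 10.29, 9.32 and 10.48 in testes (17.3-fold, adjusted p = 5.39e-06). MYOCD, the coactivator that turns on smooth muscle genes, exceeded its ovarian level by 7.30-fold (adjusted p = 1.81e-05) and the chaperone CRYAB by 6.81-fold (adjusted p = 0.000117). Other members did not differ by the test, among them the intermediate filament gene DES at 0.34 and the light chain MYL9 at 0.26. PDLIM3, an actin-associated protein, went the other way at -2.93, with its call lost without some arrays. Genes of striated muscle moved with this group. Of 25 listed muscle markers 16 were in the table, 8 had gonad values, and 6 of these were higher in testes, with a mean log2 level of 4.55 to 4.94 in ovaries and 6.47 to 6.81 in testes. MYL4, an atrial and embryonic myosin light chain, measured 6.71, 6.21 and 6.28 in ovaries and 9.75, 10.48, 9.80 and 10.27 in testes (12.8-fold, adjusted p = 1.22e-09). ACTC1, cardiac actin, was under background in ovaries and measured 4.30, 5.11, 6.27 and 7.33 in testes. Fibroblast markers were higher in testes in 5 of 14 and in ovaries in 2, and the part of striated muscle or connective tissue in the smooth muscle result was not tested.

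Extracellular matrix genes were called higher in testes more often than in ovaries. Of 52 autosomal members 17 were higher in testes (32.7%, against 10.4% of all autosomal genes) and 9 in ovaries (17.3%, against 14.7%). COL9A3, a chain of collagen IX, measured 4.92, 3.07 and 3.57 in ovaries and 8.67, 8.27, 9.12 and 8.97 in testes, at least 27.1-fold apart (log2 difference 4.91, standard error 0.49, adjusted p = 6.79e-06). COL9A1, another chain of the same collagen, was called the other way, at 5.83, 5.24 and 6.23 in ovaries and 3.06 to 3.93 in testes (adjusted p = 0.000839). In testes VTN, the adhesion protein vitronectin, was 15.7-fold higher (adjusted p = 1.66e-07) and THBS2, a thrombospondin, 5.84-fold (adjusted p = 0.00272). On the ovary side, FBLN5, a protein of elastic fibres, measured 9.49, 9.91 and 10.67 in ovaries and 2.76, 2.77, 2.80 and 3.40 in testes. It was at least 65.1-fold higher in ovaries (log2 difference -7.09, standard error 0.46, adjusted p = 1.66e-07), and its other probe set differed by -5.49. NPNT, a basement membrane ligand of integrins, was 6.73-fold higher in ovaries (adjusted p = 1.01e-06). LAMA3, a laminin chain of epithelial anchorage, was at least 4.91-fold higher (adjusted p = 3.12e-05), and ITGB4, the integrin chain that binds laminins in hemidesmosomes, measured 8.23, 7.58 and 7.71 in ovaries and 4.53, 4.64, 4.64 and 3.93 in testes (10.6-fold, adjusted p = 6.26e-07). Integrins and matrix proteases were called equally often each way, 10 of 36 in both directions. The 2 plasminogen activators were opposed, with PLAU (3.18, 4.32 and 4.88 in ovaries, 6.70 to 7.28 in testes) 6.74-fold higher in testes (adjusted p = 3.09e-05) and PLAT 6.64-fold higher in ovaries (adjusted p = 7.5e-08).

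**Figure D4:**
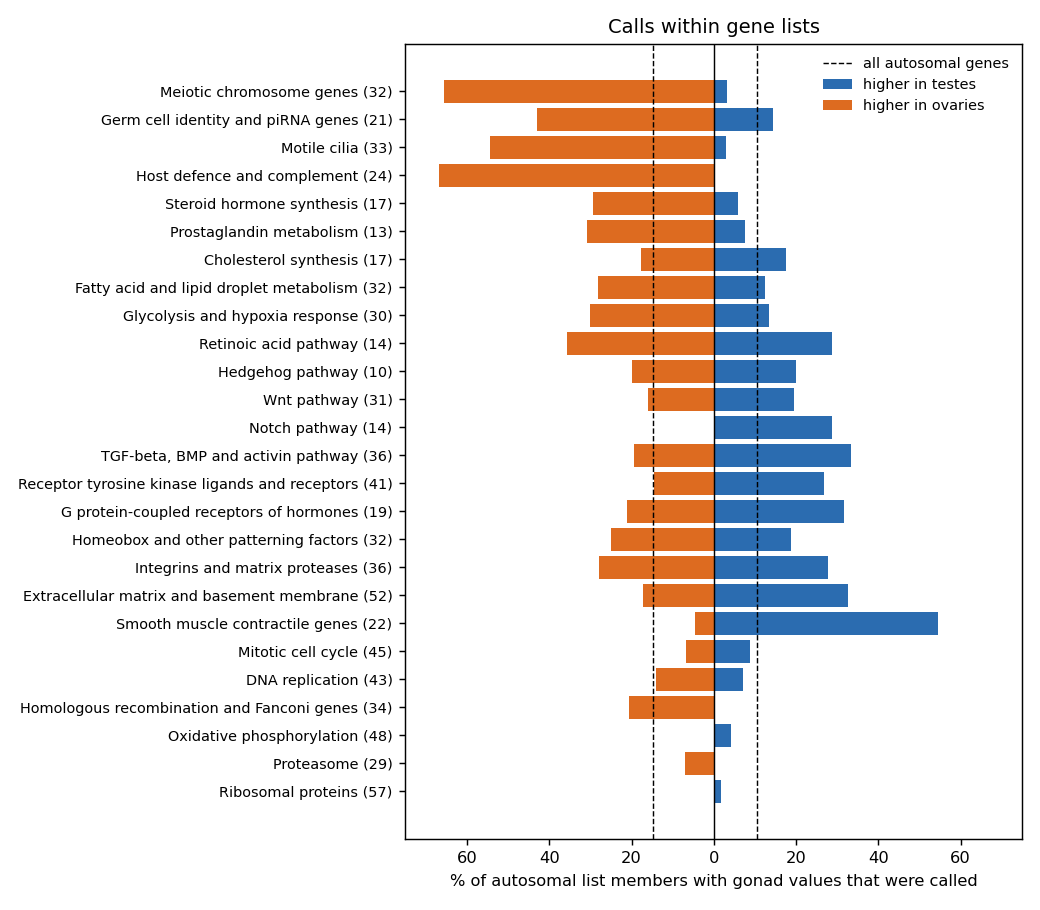
Percent of autosomal members with gonad values that were called higher in testes (bars to the right) or in ovaries (bars to the left) in 26 gene lists, with the number of members in parentheses and dashed lines at 10.4% and 14.7%, the shares over all autosomal genes. Meiotic, cilia and defence genes reach 54.5% to 66.7% on the ovary side, smooth muscle genes 54.5% on the testis side, and the ribosomal, proteasome and oxidative phosphorylation lists lie below both lines. The lists were chosen with earlier results of these data known.

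The Wnt and Hedgehog pathways held called members on both sides. Wnt genes were called in 6 of 31 in testes (19.4%, against 10.4% of all autosomal genes) and 5 of 31 in ovaries (16.1%, against 14.7%). DKK2, a secreted Wnt modulator, was at background in every ovary (2.20 to 2.22) and measured 7.24, 7.28, 6.95 and 7.05 in testes, at least 8.76-fold higher (log2 difference 4.92, standard error 0.13, adjusted p = 9.91e-08). WIF1, which binds and blocks Wnt proteins, was 15.7-fold higher in testes (adjusted p = 7.62e-06), the ligand WNT5A 4.56-fold (adjusted p = 5.24e-07) and RSPO3, which amplifies Wnt signals, 4.93-fold (adjusted p = 0.00364). ROR1, a receptor of WNT5A, was 6.29-fold higher in ovaries instead (10.20, 10.20 and 9.96 against 6.89 to 7.69, adjusted p = 3.3e-07), and DKK3 4.75-fold, although in DKK3 the testis of embryo 21, at 10.84, lay well above the other testes. In the Hedgehog pathway HHIP, a decoy receptor for the ligands, measured 3.76, 4.58 and 3.62 in ovaries and 8.20, 6.63, 7.69 and 6.94 in testes, at least 10.3-fold apart (adjusted p = 6.94e-05). The co-receptors were opposed, with BOC 3.14-fold higher in testes and CDON 2.57-fold higher in ovaries, and DISP1, which releases the ligand, was 3.70-fold higher in ovaries (adjusted p = 7.98e-08). All 4 called Notch genes of 14 were higher in testes (28.6%, against 10.4% of all autosomal genes). They were led by the ligand DLL1 (5.85 to 6.26 against 7.77 to 7.88, 3.30-fold, adjusted p = 1.64e-05). The call of HES4, another of the 4, was lost in some of the other fits.

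Of 36 autosomal genes of the transforming growth factor beta family and its pathway 12 were higher in testes (33.3%) and 7 in ovaries (19.4%). INHBB, the activin beta B subunit, measured 8.09, 7.58 and 7.76 in ovaries and 11.83, 12.33, 12.09 and 12.21 in testes (19.8-fold, log2 difference 4.31, standard error 0.19, adjusted p = 5.36e-09). INHBA, the beta A subunit, measured 3.90, 4.49 and 3.85 in ovaries and 8.02, 6.52, 7.42 and 8.12 in testes (10.8-fold, adjusted p = 1.11e-05), while its other probe set differed by 0.87. BMP7, a bone morphogenetic protein, was the largest difference on the ovary side, at 8.28, 7.81 and 7.33 in ovaries and 4.33, 3.26, 2.74 and 3.80 in testes, at least 14-fold (log2 difference -4.28, standard error 0.38, adjusted p = 1.7e-07). LTBP1, which stores latent growth factor in the matrix, was 9.84-fold higher in ovaries (adjusted p = 7.68e-05). Receptor tyrosine kinases and their ligands were higher in testes in 11 of 41 (26.8%) and in ovaries in 6. GFRA4, a co-receptor of the GDNF family, was higher in testes by 5.20-fold (adjusted p = 7.77e-06) and PDGFRA, a receptor of mesenchymal cells, 3.95-fold (adjusted p = 0.00149), whereas FGFR3, a fibroblast growth factor receptor, was 7.94-fold higher in ovaries (adjusted p = 0.000231) and its ligand FGF2 at least 2.80-fold (adjusted p = 0.000132).

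**Figure D5:**
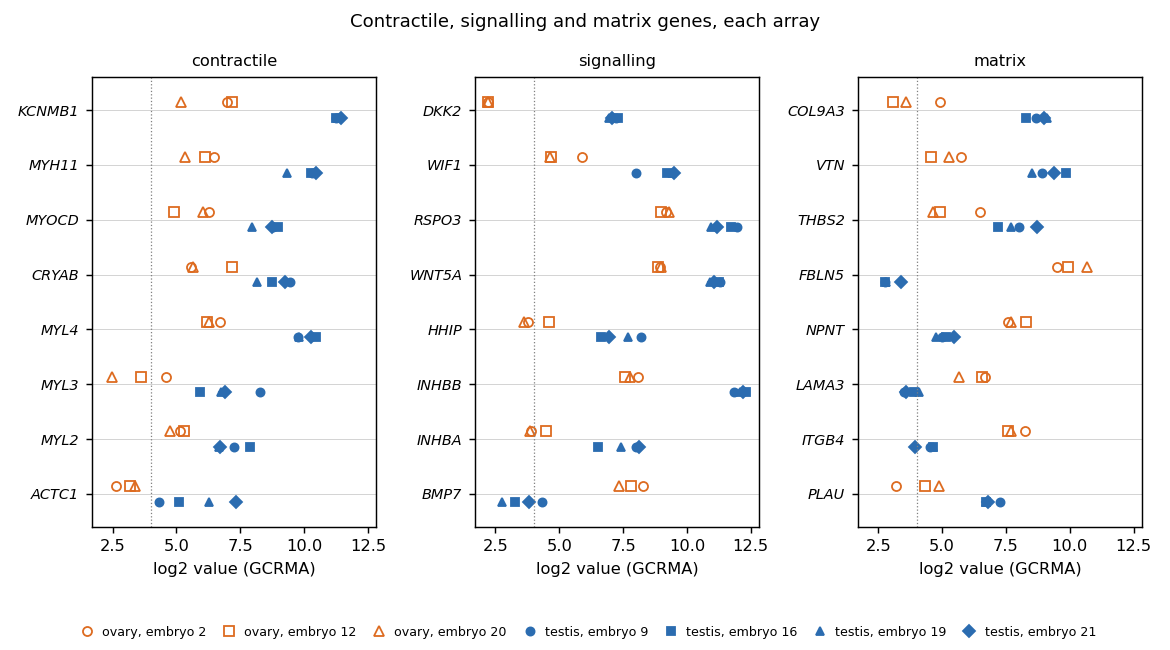
Log2 values (x axis) of contractile, signalling and matrix genes in each array (open symbols, 3 ovaries; filled symbols, 4 testes; dotted line, background level of 4). Testes and ovaries do not overlap in any of the genes shown, with testes on the right except in BMP7, FBLN5, NPNT, LAMA3 and ITGB4, and ACTC1 spreads from 4.30 to 7.33 over the testes.

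Among hormone receptors, ADRA1B, an adrenergic receptor, was at background in ovaries (2.71, 2.96 and 2.96) and measured 7.90, 8.16, 8.28 and 7.60 in testes, at least 15.8-fold higher (log2 difference 5.11, standard error 0.19, adjusted p = 5.93e-07). The gonadotropin receptors were both higher in ovaries. LHCGR, the receptor of luteinizing hormone, measured 12.18, 12.35 and 11.77 in ovaries and 10.17, 9.43, 9.76 and 9.40 in testes (5.30-fold, adjusted p = 0.000351), and FSHR, that of follicle-stimulating hormone, 9.87, 9.50 and 9.49 against 7.56, 6.87, 8.51 and 8.32 (3.48-fold, adjusted p = 0.00941). Of patterning factors, the mesodermal MEOX2 (6.58-fold, adjusted p = 4.64e-06) and TWIST2 (6.11-fold, adjusted p = 8.88e-06) were higher in testes. SALL1, a zinc finger factor of kidney development, was 7.32-fold higher in ovaries (11.70 to 12.05 against 8.72 to 9.11, adjusted p = 2.18e-08), and EMX2, a homeobox factor needed for the gonad in mouse, 3.58-fold (adjusted p = 0.000378). Others of the largest differences on the testis side were SLCO4A1, an organic anion transporter (4.00, 4.75 and 3.67 in ovaries, 9.69 to 9.96 in testes, 50.5-fold, adjusted p = 1.34e-07), and LRRN3, a leucine-rich repeat membrane protein (at least 18.8-fold, adjusted p = 3.95e-07). SHANK2, a synaptic scaffold, was 26.2-fold higher in testes, the tyrosine kinase TEC 22.0-fold, the phosphatase PTPN5 19.5-fold (its 3 other probe sets ran from 0.39 to 4.73, with 2 of them called), the lipid flippase ATP8A1 19-fold and GCNT2, which branches cell surface sugar chains, 16.4-fold. The junctional protein EPB41L4B was at least 14.5-fold higher and KNDC1, a Ras exchange factor, at least 9.82-fold.

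Of general cell functions, few genes of ribosomes, oxidative phosphorylation, the proteasome and repressive chromatin were called. Of 57 autosomal ribosomal protein genes 1 was called, RPL31, and it lost its call without some arrays. Of 48 genes of oxidative phosphorylation 2 were called, and of 29 of the proteasome 2, with medians of 0.11 and -0.11. Mitotic genes were called in 4 of 45 in testes (8.89%) and 3 in ovaries (6.67%). DNA replication genes were called in 3 of 43 in testes (6.98%) and 6 in ovaries (14%). Over all autosomal genes the shares were 10.4% and 14.7%. Of 23 genes of DNA methylation and repressive chromatin 1 was called, in testes. In homologous recombination and the Fanconi pathway, whose genes act in all dividing cells, 7 of 34 were higher in ovaries (20.6%), and the median was -0.16. That count fell to 3 without the ovary of embryo 2 and to 4 without that of embryo 20. The largest of these differences was 2.23-fold (RAD54B). The call of RAD54B was lost with gonad arrays alone and without the ovary of embryo 2, that of embryo 20 or the testis of embryo 16.

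Nerve and chromaffin markers, genes of the sympathetic system and adrenal medulla near the gonad, were called in 8 of 15 autosomal members, all higher in ovaries. With gonad arrays alone 1 was called, and without the ovary of embryo 2 or that of embryo 12 there were 4. CHGA, a protein of secretory granules, measured 7.17, 11.11 and 5.58 in ovaries and 3.80 to 4.78 in testes (adjusted p = 0.00511), and its difference ran from -5.02 to -2.25 when single arrays were left out, the latter without the ovary of embryo 12. SNAP25, a protein of synaptic vesicle release, measured 5.74, 5.89 and 3.02 in ovaries and 2.96 to 3.11 in testes, with the ovary of embryo 20 among the testes, and its other probe set was not called. The mean log2 level of the 15 was 6.79, 7.28 and 4.84 in ovaries and 4.64 to 5.14 in testes. Endothelial markers were higher in ovaries in 4 of 9 and in testes in none, with KDR, a receptor of vascular growth factor, at 7.36 to 7.58 against 4.38 to 5.55 (5.54-fold, adjusted p = 1.02e-06). Of 5 autosomal red cell markers 2 were higher in ovaries, while the 1 on Z, HEMGN, was higher in testes (below). HBAD, a globin gene, measured 13.93, 13.48 and 12.21 in ovaries and at most 12.19 in the testes (3.63-fold, adjusted p = 0.000975). Of 4 markers of Schwann cells and glia 3 were higher in ovaries and 1 in testes, and of 3 adrenal cortex markers 1 was higher in ovaries. Among 13 markers of handling and stress 4 were higher in ovaries and 1 in testes. ATF3, a stress-induced factor, was at least 3.99-fold higher in ovaries and JUN, an immediate early factor, overlapped between the sexes. The part of these cell types and of handling in the results above was not tested.

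On Z, 229 of 425 genes were higher in testes (53.9%) and 32 in ovaries (7.53%), with a median difference of 0.73, so a gene is read here against Z and not against autosomes. CHSY3, which builds chondroitin chains, measured 3.84, 3.87 and 4.30 in ovaries and 8.09, 8.03, 7.65 and 7.69 in testes (14.5-fold, log2 difference 3.86, standard error 0.18, adjusted p = 2.5e-06). CDO1, which oxidizes cysteine on the way to taurine, was at least 8.65-fold higher in testes (3.01 to 3.64 against 6.85 to 7.50, adjusted p = 1.99e-08). PLCXD3, a phospholipase-like protein, was 11-fold higher in testes, MEGF10, an engulfment receptor, 9.56-fold, the glutamate receptor subunit GRIN3A 9.49-fold and GRP, gastrin-releasing peptide, 5.59-fold. HEMGN, a factor first known from blood cells, measured 6.11, 6.08 and 5.90 in ovaries and 8.36, 8.91, 8.36 and 9.25 in testes (6.46-fold, adjusted p = 1.59e-06). DMRT1, the testis-determining factor on Z, measured 13.46, 13.33 and 13.55 in ovaries and 13.70, 13.79, 13.90 and 13.91 in testes by its brightest probe set (difference 0.38, adjusted p = 0.0883, not called). Its other probe set differed by 1.41 and was called higher in testes. Against the direction of Z as a whole, EMB, a membrane glycoprotein, measured 14.46, 14.44 and 14.36 in ovaries and 11.17, 11.08, 11.06 and 11.28 in testes (9.68-fold, adjusted p = 1.45e-07). ELOVL7, an elongase of long fatty acids, was 7.40-fold higher in ovaries (adjusted p = 7.54e-08), PTBP3, a splicing regulator, 6.50-fold, PARP8 6.24-fold and GLDC, which cleaves glycine, 5.52-fold. IL7R, the interleukin-7 receptor, was at background in testes and measured 7.08, 5.28 and 4.92 in ovaries, at least 3.38-fold higher (adjusted p = 0.000631).

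Of 13 genes placed on W, 10 were higher in ovaries and 2 in testes. Males carry no W, and the latter, MBD2, which binds methylated DNA (difference 0.90), and NEDD4L, a ubiquitin ligase (0.65), lay above background in every testis. Neither their placement nor the source of this signal was tested. HNRNPKL, the W copy of an RNA-binding protein gene, measured 9.87, 9.12 and 9.94 in ovaries and 3.03 to 3.18 in testes, all of them at background (log2 difference -6.54, standard error 0.18, adjusted p = 1.23e-14). Its other probe set differed by -6.18. UBAP2L2 overlapped between the sexes by its brightest probe set (difference -0.52, adjusted p = 0.272), whereas its 2 other probe sets differed by -3.48 and -2.04.

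The autosomal differences were set beside those in brain and heart of the same fit, a comparison added after the values were seen. Of 6902 autosomal genes with values in both gonad and brain, 10 were called between the sexes in brain (0.145%), and of 6929 in heart 13 (0.188%). Of the 852 autosomal genes higher in testes, 687 had brain values, and 1 of them was higher in male brain. In 380 of the 687 the gonad difference differed from that in brain by a test of the contrast itself. Of the 1200 higher in ovaries 873 had brain values, 2 were higher in female brain, and 509 passed the contrast. Against heart the contrast was passed by 346 of 636 and 562 of 850. Over all autosomal genes it was passed by 14.2% against brain and 14.9% against heart. On Z, 36.5% of genes were higher in male brain and 34.1% in male heart, and of the 229 Z genes higher in testes 195 had brain values, of which 100 were also higher in male brain and 32 passed the contrast. In heart 97 of 196 were also higher in males and 43 passed it, where 17.4% and 18.2% of all Z genes passed against brain and heart. The genes were chosen by the gonad arrays that enter the contrast, so these shares describe the called genes and are no independent test of them.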

How the data were processed

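The authors deposited log2 probe set values of chicken arrays, made in R 2.4.1 by GCRMA, which corrects background by base content, with quantile normalization between arrays and a median polish over probes, and filtered within each tissue on mean level and MAS5 present calls. Low values are compressed towards a background level by that correction. Of 19874 probe sets, 16499 had gonad values (1.68 to 16.09), and array medians were 7.52 to 7.59. In R 4.3.3, limma 3.58.1 was fitted over all 21 arrays, each sex in each tissue being 1 of 6 groups, and testes minus ovaries was called at a fold change over 1.5 and a Benjamini-Hochberg adjusted p under 0.05 over the 16499. Adjusted p in the text is from this fit. Labels and group sizes came from the sample titles. P-values measure the spread between embryos within groups, pooled over gonad, brain and heart arrays, with the arrays of 1 embryo treated as independent. With gonad arrays alone, adjusted p from limma was larger in most named genes, often by orders of magnitude, and smaller in a minority. It was 1.07e-06 against 7.66e-12 in IRF1 and 0.000614 against 0.00364 in RSPO3. Genes were placed by a RefSeq gene table, and each gene was described by its probe set of highest gonad mean. The fit was tested on simulated data. Tables were made with Python 3.11.15, numpy 2.4.6, pandas 2.3.3 and figures with matplotlib 3.10.9.

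Named genes were the leading autosomal genes in each direction whose call held with gonad arrays alone and with each gonad array left out and whose arrays did not overlap, the leading called members of each list, and leading Z and W genes. Members and lists were chosen with earlier results of these data known. List members named beyond that rule, namely MND1, MSH4, STAG3, DAZL, DDX4, CFAP52, COL9A1, CPT2, CFI, C1S, CSF1R, CYP11A1, CYP17A1, DES, MYL9, PPARA, IFNAR1, ALDH1A2 and ALDH1A3, were picked once their values were known. The fit was also run with gonad arrays alone, with the embryo as replicate block, array weights, another prior, centring, a stricter filter, a higher fold change, other rules for probe sets and each gonad array left out.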

Additional observations from a re-analysis of the deposited data

Results flagged for a closer look

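In 23 of the 254 named genes the testis farthest from the others lay apart by Dixon's criterion for 4 samples, which chance alone meets in about 1 of 20 groups. The testis of embryo 16 stood apart upward in DEFB4A at 5.30 (others 2.62 to 2.99), JUN at 11.63, CHGA at 4.78, PCK1 at 2.90 and GRIN3A at 8.99, and downward in RYR2 at 5.06. The testis of embryo 21 stood apart upward in DKK3 at 10.84 (others 8.95 to 9.20), KCNMB1 at 11.45, FBLN5 at 3.40 and ATF3 at 3.08, and downward in ITGB4 at 3.93, TLR3 at 2.25 and ZP1 at 2.24. The testis of embryo 9 stood apart downward in ROPN1L at 4.60 (others 5.16 to 5.26), SALL1 at 8.72, CLDN5 at 8.04, ROR1 at 6.89 and GCNT2 at 10.79. The testis of embryo 19 stood apart downward in MYH11 at 9.32 (others 10.29 to 10.48), PTGES at 4.76 and GFRA4 at 6.60, and upward in DNAH12 at 2.76 and ZAR1L at 2.19. In FBLN5, ATF3, PCK1, TLR3, ZP1, DNAH12 and ZAR1L every testis lay under 4.00, at background. The 3 ovaries were too few for this criterion.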

How the results depend on the processing

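None of the called named genes reversed its direction under the alternatives run. Of 252 called named genes, 211 kept their calls in every alternative fit that held the gene and 41 lost them in at least 1. The fold change over 2 and the choice of 1 probe set per gene were not among the fits of this count. A gene removed by the stricter filter was not counted as lost. With the embryo as replicate block (correlation of arrays of 1 embryo 0.122), 2123 probe sets were higher in testes and 2268 in ovaries, against 2120 and 2271, and no count moved by over 1.5 times. With 1 probe set per gene, 1089 were higher in testes and 1249 in ovaries, of which 858 autosomal in testes (1361 probe sets), and on W 2 in testes (6) and 10 in ovaries (19). At a fold change over 2, 1278 probe sets were higher in testes, with 803 autosomal in testes, 1148 autosomal in ovaries (1750), 216 on Z in testes (335) and 1 on W in testes. At that threshold the autosomal members called were 8 in fatty acid metabolism, 8 in glycolysis, 7 in testes in smooth muscle, 7 in testes in receptor tyrosine kinases, 6 in testes in integrins, 4 in mitosis, 3 in estrogen targets, 3 in steroid synthesis, 2 in DNA replication, 2 in Notch, 2 in handling, 1 in cholesterol synthesis, 1 in homologous recombination, 1 in the proteasome, 0 in oxidative phosphorylation and 0 in ribosomal proteins. With a higher sex mean of at least 6, 3 kidney markers, 3 nerve markers, 2 oocyte genes, 1 surface epithelium marker and 0 repressive chromatin genes were called. With the mean of all probe sets of a gene, 2 repressive chromatin and 2 ribosomal genes were called, and with gonad arrays alone 1 nerve marker. Leaving out single arrays gave 1 to 3 in repressive chromatin, 3 to 9 in homologous recombination, 1 to 2 in adrenal cortex, 4 to 7 in fibroblasts (4 without the ovary of embryo 20), 3 to 5 in kidney, 4 to 10 in nerve markers, 1 to 2 in surface epithelium, 4 to 9 in mitosis (4 without the ovary of embryo 20), 2 to 4 in oocyte genes (2 without the ovary of embryo 12), 1 to 2 in the proteasome and 0 to 1 in ribosomal proteins. Beyond thresholds and filters that remove genes or arrays by construction, the cause was not tested. With 3 ovaries and 4 testes, the number of arrays limits the precision.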
